A study of Mus musculus with 6 samples.

Results

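Classical monocytes that carried high levels of interferon-induced transcripts were examined in single-cell RNA sequencing libraries of 6 mice. A cell was taken as a classical monocyte when it had at least 3 UMIs (unique molecular identifiers, 1 for each captured transcript) of Ly6c2, at least 1 of Csf1r or Ccr2, and none or few UMIs of genes of neutrophils, C1q or Spp1 macrophages, Ace monocytes, T cells, B cells and plasmacytoid dendritic cells. It was then selected on its interferon genes and called interferon-high when Rsad2, Ifit1, Ifit2 and Ifit3 together reached 10 UMIs. This left 208 interferon-high monocytes of 2378 classical monocytes and of 51633 cells that passed the filters (0.403%). Because those 4 genes chose the cells, their own levels are given as a description, with no p-value.

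The mice were 6- to 8-week-old female C57BL/6 animals with orthotopic tumors of KPCA, a mouse ovarian cancer line able to repair DNA by homologous recombination, and 1 mouse was sequenced for each treatment. The treatments were solvent with control rat IgG (control), an antibody to PD-L1 (anti-PD-L1, 2 injections a week for 3 weeks), 2-deoxy-glucose (2DG, a glucose analogue that also disturbs N-glycan assembly), the fucose analogue 2FF (which lowers fucosylation, with tumor cells pretreated before implantation), and each of these inhibitors with anti-PD-L1. 2FF was given every 2 days from implantation, 2DG every 2 days from day 9 and the antibody after day 9, and mice were killed on day 30. The labels give the tissue as lymph node, and the design text of the series mentions young and aged animals, whereas the study's methods describe tumors of mice of 1 age. Values of the 6 libraries are given below in the order control, anti-PD-L1, 2DG, 2DG with anti-PD-L1, 2FF and 2FF with anti-PD-L1. The control and anti-PD-L1 mice serve the comparisons of both inhibitors. With 1 mouse a treatment, a difference between libraries has no replicate check, and a treatment effect cannot be told apart from a difference between mice or preparations.

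The libraries held 7703 to 9222 cells after filtering, and interferon-high monocytes had median depths of 11767, 6856, 7800.5, 6440, 8554 and 8409 UMIs. The control library stood apart from the other libraries. Cd3e, a subunit of the T cell receptor complex, had a UMI in 5.31% of its cells and in 24.6% to 35.2% elsewhere, and Csf3r, the G-CSF receptor of neutrophils, in 46.9% and 22.8% to 30.5%. Epcam, an epithelial adhesion molecule, was detected in 1.16% to 1.87% of cells and Ptprc, which encodes the leukocyte antigen CD45, in 90.2% to 96.9%. The 6 libraries shared 12 to 27 cell barcodes a pair, and no barcode was shared between interferon-high monocytes.

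Classical monocytes are circulating cells made in the bone marrow that enter inflamed tissue and tumors through the chemokine receptor CCR2, where they become macrophages or suppressive myeloid cells. Type I interferons bind a receptor of IFNAR1 and IFNAR2 and activate the kinases JAK1 and TYK2, which phosphorylate transcription factors of the STAT family. With IRF9 these form a complex that binds the interferon-stimulated response element (ISRE) in promoters and switches on antiviral effectors, RNA and DNA sensors and chemokines. Interferon gamma acts through a separate receptor, and many genes, such as guanylate-binding proteins, answer to both.

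The ISRE can be read in the promoters of 3 of the 4 genes that chose the cells and of some genes that moved with them. RefSeq promoters (GRCm38.p6, 250 bases before to 50 after each gene's start) were searched on both strands for GAAANNGAAA, in which N is any base. The motif was present in 3.44% of all 32851 promoters of that length. It stood in the promoters of Rsad2, Ifit1 and Ifit3 and was absent from both listed promoters of Ifit2. Among other genes that rose, it stood in the listed promoters of Isg15, Ddx60 and Ifit1bl1 and not in those of Cmpk2, Slfn4 and Oasl1. Shown 5′ to 3′ on the gene's strand are the matches (capitals; some overlap each other in Isg15) with 25 bases on each side, for 3 selecting genes, for the ubiquitin-like protein gene Isg15 and for the chemokine gene Cxcl10.
Rsad2 chr12:26456538-26456597 minus strand: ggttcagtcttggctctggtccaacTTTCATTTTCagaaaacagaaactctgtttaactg
Ifit1 chr19:34640760-34640838 plus strand: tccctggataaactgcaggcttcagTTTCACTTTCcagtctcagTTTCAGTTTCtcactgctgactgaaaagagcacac
Ifit3 chr19:34583348-34583441 plus strand: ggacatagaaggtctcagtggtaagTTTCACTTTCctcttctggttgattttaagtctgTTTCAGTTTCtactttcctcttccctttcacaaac
Isg15 chr4:156200850-156200921 minus strand: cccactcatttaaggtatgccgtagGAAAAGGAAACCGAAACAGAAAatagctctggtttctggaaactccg
Cxcl10 chr5:92349068-92349127 minus strand: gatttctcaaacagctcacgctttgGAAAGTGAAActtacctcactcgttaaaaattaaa
Of the 9440 genes compared below, 7488 (79.3%) had a promoter in the table, too few to set called genes against the rest. Among lists of at least 10 tested genes in which at least 80% had a promoter, the motif was present for 14 of 32 antiviral effectors, 5 of 18 genes of MHC class I presentation and 2 of 9 interferon transcription factors. It was present for none of 15 glycolysis genes or 14 genes of apoptosis and pyroptosis. These counts are of genes with a match in any of their listed promoters. The 3.44% above is a share of single promoters, so it is no direct background for them. A match describes the letters in that window and was not tied to binding of a factor.

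The cells carried the markers that name them. Ly6c2, the surface antigen of mouse classical monocytes, was counted at 656, 1225, 1149, 1334, 806 and 1133 CPM (UMIs of the gene in every 1000000 UMIs of the summed cells of a library) in interferon-high monocytes and at 654, 1169, 976, 1250.3, 1053 and 996 CPM in the 2170 interferon-low classical monocytes of the same gate. Rsad2, which encodes viperin, an enzyme that makes a chain-terminating nucleotide (ENSMUSG00000020641, chr12:26442746-26456452), was at 1197, 2570.2, 3070.2, 3249, 2662 and 2815 CPM against 12.8, 26.8, 27.8, 42.3, 34.0 and 39.1 CPM, a separation that follows from the rule. Ifit1 (chr19:34640871-34650009), whose product binds foreign RNA, and Ifit3 (chr19:34583531-34588731), which encodes a partner of it, lie close together and were at 344 to 846 and 177 to 610.1 CPM. Rsad2 had a UMI in 203, Ifit2 in 201, Ifit1 in 184 and Ifit3 in 162 of the 208 cells. Of the 9 listed epithelial genes, Krt8, Krt19, Epcam, Msln, Cldn3 and Cldn7 were at 0 in interferon-high monocytes and the 9 genes summed to 3.08 CPM.

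Most classical monocytes had no UMI of the 4 selecting genes, and the interferon-high cells formed a long tail. The count was 0 in 1449 cells, 1 to 4 in 592 and 5 to 9 in 129. It was 10 to 19 in 77 cells, 20 to 49 in 70, 50 to 99 in 43 and 100 or more in 18. The median count of interferon-high cells was 17, 22, 41, 31, 39.5 and 41 UMIs in the libraries, and the highest was 267. Cells just outside and just inside the threshold were closer for some genes than for others. The 30 cells just outside, with 8 or 9 UMIs, had 789 CPM of Isg15 and the 25 cells just inside, with 10 to 12, had 1241 CPM, against 3263 CPM in the 61 cells with 50 or more. For Cxcl10 the same values were 1091, 1144 and 5516 CPM. For Cmpk2 they were 47.1, 107 and 739 CPM, and for Nos2, in 4 of 30, 5 of 25 and 39 of 61 cells, 78.5, 315 and 1028 CPM. Slfn4, with UMIs in 66.7%, 60% and 98.4% of these cells, was at 294, 451 and 1887 CPM, and Oasl1, at 377, 300.5 and 1306 CPM, was lower just inside the threshold than just outside. The interferon-high cells are a range above a threshold on a count, and whether they are a cell type of their own was not tested.

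**Figure D1:**
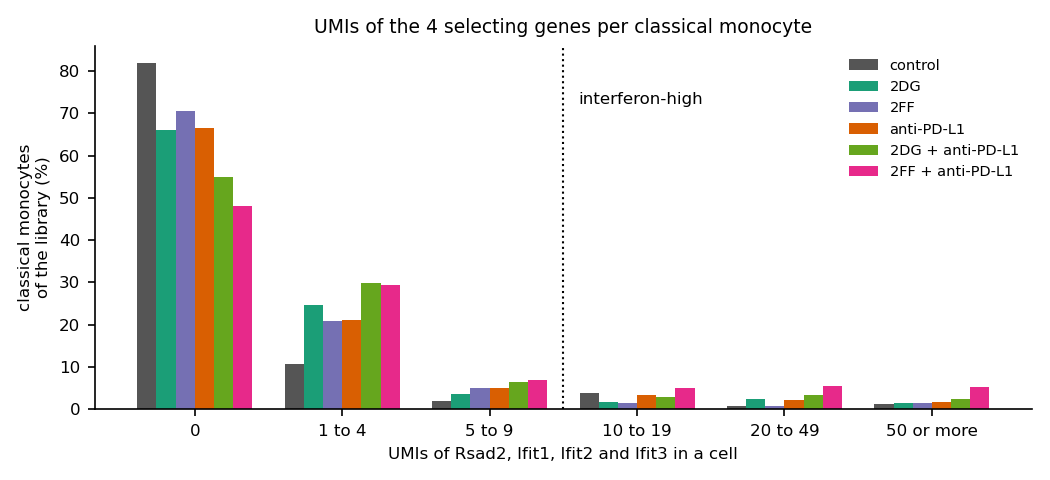
Percentage of the classical monocytes of each library (y axis) by the number of UMIs of Rsad2, Ifit1, Ifit2 and Ifit3 in a cell (x axis), with 1 bar for each of the 6 libraries. The dotted line marks the threshold of 10 UMIs, and cells to its right are the 208 interferon-high monocytes.

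Interferon-high cells made up the largest share of classical monocytes in the mouse given 2FF with anti-PD-L1. The shares were 9 of 161 cells (5.59%, exact 95% interval 2.59% to 10.3%) in the control library, 36 of 495 cells (7.27%, exact 95% interval 5.15% to 9.93%) in the anti-PD-L1 library, 16 of 284 cells (5.63%, exact 95% interval 3.25% to 8.99%) in the 2DG library, 56 of 640 cells (8.75%, exact 95% interval 6.68% to 11.2%) in the 2DG with anti-PD-L1 library, 10 of 279 cells (3.58%, exact 95% interval 1.73% to 6.49%) in the 2FF library and 81 of 519 cells (15.6%, exact 95% interval 12.6% to 19.0%) in the 2FF with anti-PD-L1 library. The interval of the 2FF with anti-PD-L1 library lay above those of the other 5 libraries. These overlapped one another, except that the interval of the 2FF library lay below that of the 2DG with anti-PD-L1 library. The intervals cover counting error only. Classical monocytes as a whole were 1.77%, 5.62%, 3.69%, 7.09%, 3.03% and 6.65% of the cells that passed the filters. When every cell was thinned to 3000 UMIs, the shares of interferon-high cells were 1.93%, 4.38%, 4.01%, 5.54%, 2.16% and 9.73%, and the 2FF with anti-PD-L1 library kept the highest value. With a threshold of 5 UMIs in place of 10 they were 7.45%, 12.3%, 9.15%, 15.2%, 8.60% and 22.5%.

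Other cell classes were measured with the same 4 genes and the same threshold of 10 UMIs. Neutrophils passed it in 14.2%, 14.7%, 11.7%, 10.3%, 16.9% and 28.9% of cells, at median depths of 2696 to 4164 UMIs. C1q macrophages passed it in 5.07%, 6.87%, 8.98%, 9.60%, 8.76% and 12.7%, and Ace monocytes, the non-classical type that patrols vessels, in 1.19%, 2.18%, 2.11%, 1.12%, 1.04% and 6.06%. T cells stayed at 1.15%, 0.871%, 0.685%, 1.04%, 0.737% and 1.72%. In each of these 4 classes, too, the 2FF with anti-PD-L1 library had the highest share. B cells passed in 0 of 60, 0 of 200, 0 of 100, 4 of 381, 0 of 264 and 0 of 176 cells.

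**Figure D2:**
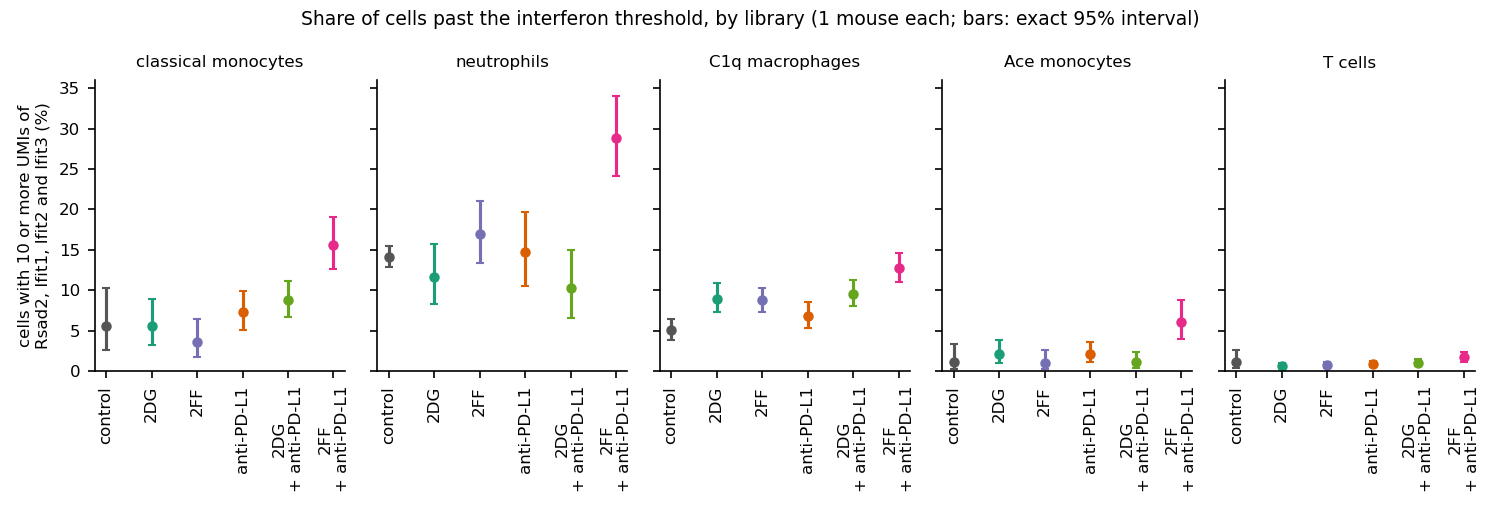
Percentage of cells with at least 10 UMIs of Rsad2, Ifit1, Ifit2 and Ifit3 (y axis, linear) in each library (x axis) for 5 cell classes, with points for the share and bars for the exact 95% interval, which covers counting error only. The 2FF with anti-PD-L1 library has the highest point in all 5 panels, at 15.6% for classical monocytes and 28.9% for neutrophils.

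The interferon-high monocytes of each mouse were then compared with the interferon-low monocytes of the same mouse, which is the only comparison here with replicates (6 mice). UMIs were summed per mouse and class and fitted with edgeR's quasi-likelihood test, with the mouse as a block. Of 9440 genes tested, 1094 (11.6%) were higher and 780 (8.26%) were lower in interferon-high monocytes at an adjusted p under 0.05. The fit and the adjustment ran over 9453 genes, 13 of them genes of the selection rule, which no count includes. The shares of 11.6% and 8.26% are the background for the count of every list below. Of the genes past the test, 645 were higher and 683 were lower in all 6 libraries. Without the control mouse 1105 genes were higher and 736 lower, and without the 2FF with anti-PD-L1 mouse, which gave the most cells, 834 were higher and 450 lower. The median log2 fold change over all genes tested was −0.13, and changes are to be read against it. Interferon-induced genes move with the 4 genes that chose the cells, so their rise describes the selected cells and is no independent support for the selection.

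Among the 10 genes with the largest rise that did so in every library were antiviral genes, a death ligand and an enzyme of nitric oxide synthesis. Isg15, which encodes a ubiquitin-like modifier (ENSMUSG00000035692, chr4:156199424-156200818), was at 1624, 1675, 2159, 2634, 2265 and 1992 CPM in interferon-high and at 90.1, 166, 152, 353, 210.3 and 253 CPM in interferon-low monocytes, with no overlap between the classes (log2 fold change 3.57 ± 0.13 (SE), adjusted p = 7.51e-24). Cmpk2, a mitochondrial nucleotide kinase gene next to Rsad2 (ENSMUSG00000020638, chr12:26469204-26479837), was at 219, 349, 279, 411, 432 and 300.4 against 5.86, 15.6, 10.8, 15.5, 16.3 and 14.5 CPM, again with no overlap (log2 fold change 4.81 ± 0.17 (SE), adjusted p = 7.51e-24). Ifit1bl1, an Ifit1-like gene of the same cluster on chromosome 19, had the largest fitted rise of the eligible genes. It was at 105 to 402 CPM against 1.60 to 5.42 CPM. Ifit1bl1 and the death ligand gene Tnfsf10 entered the test through their interferon-high sums, and the sizes of their changes are poorly known. Their fold changes and p-values are left out, and their places among the 10 are no support for a rise. Ifit1bl1 and Ifit3b (5.55), which stands in the antiviral list, are close copies of genes that chose the cells. Reads may be divided among them, so their values are uncertain. The others were Slfn4 (4.05), a Schlafen family gene of myeloid cells, the helicase gene Ddx60 (3.70), Oasl1 (3.59), which restrains translation of Irf7, Usp18 (3.52), Ifi44 (3.51), the death ligand gene Tnfsf10 (3.88, TRAIL) and Nos2 (4.20).

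Antiviral effectors rose almost as a whole list. Of 38 tested, 35 were higher and 0 lower, with a median log2 fold change of 1.81 against −0.13 over all genes. Isg20, an exonuclease of viral RNA, was at 93.7 to 374 CPM in the interferon-high and 12.8 to 33.1 CPM in the interferon-low monocytes (log2 fold change 3.41 ± 0.19 (SE), adjusted p = 2.57e-17). The oligoadenylate synthetase genes Oas1a (1.45), Oas2 (1.40) and Oas3 (1.56), whose enzymes sense double-stranded RNA, rose. Bst2 (tetherin, which holds budding virions) rose by 1.48 and Ifitm3, which blocks viral entry, by 0.50 on the log2 scale. The smaller change of Ifitm3 went with levels of 2094 to 3533 CPM in interferon-low monocytes already. Samhd1, a nucleotide hydrolase, Ifitm2 and Ifitm6 did not pass the test (log2 fold changes −0.09, −0.15 and −0.30). Ch25h, which makes an antiviral oxysterol, had 25 UMIs in 11 of 208 interferon-high cells and 5 UMIs in 5 of 2170 interferon-low cells, and none in either class of the anti-PD-L1 mouse. With so few UMIs in interferon-low cells it entered the test through its interferon-high sums, and the size of its change is poorly known. Its fold change and p-value are left out, and its place in the count of this list is no support for the list's rise.

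Sensors of foreign nucleic acid rose in 13 of 17 tested genes, and 0 were lower (median 1.49). Ddx58, which encodes the RNA sensor RIG-I, was at 229, 261, 427, 274, 269 and 302 CPM against 20.3, 69.2, 69.8, 65.7, 44.3 and 61.9 CPM, so that the classes did not overlap (log2 fold change 2.56 ± 0.16 (SE), adjusted p = 8.85e-16). Ifih1 (MDA5, a sensor of long double-stranded RNA) rose by 2.39, Eif2ak2 (PKR) by 1.68, Zbp1 (a sensor of Z-form nucleic acid) by 1.35 and Cgas (which makes the second messenger cGAMP) by 1.21. The adaptors that relay these signals did not pass the test. Tmem173, which encodes STING, had a log2 fold change of 0.29 (adjusted p = 0.206) and Mavs one of −0.96 (adjusted p = 0.354).

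The signalling genes changed in part. Of 11 interferon transcription factor genes, 6 rose and 0 fell (median 0.47). Irf7, the factor that amplifies type I interferon production, was at 437, 614, 649, 706, 502 and 479.8 against 61.8, 169, 121, 190.5, 142 and 165 CPM (log2 fold change 2.18 ± 0.14 (SE), adjusted p = 8.85e-16). Stat2 rose by 1.76 and Irf2 by 1.11, each with no overlap between the classes, whereas Irf9 (0.38) and Irf1 (0.05) did not pass the test. Among 7 receptor and kinase genes, Ifnar1, a chain of the type I interferon receptor, rose (log2 fold change 0.97 ± 0.15 (SE), adjusted p = 5.53e-06), as did Jak2 (1.10). Ifngr1, the ligand-binding chain of the interferon gamma receptor, fell from 264, 296, 365, 315, 385 and 309.8 CPM to 83.3, 181, 156, 106, 199 and 96.3 CPM and was lower in all 6 libraries (log2 fold change −1.12 ± 0.16 (SE), adjusted p = 4.00e-07). Ifnar2, Jak1, Tyk2 and Ifngr2 did not pass.

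Some brakes of the pathway rose beside its effectors. Of 11 negative regulators tested, 5 were higher and 0 lower (median 0.26). Usp18, which removes ISG15 from proteins and blocks IFNAR2, was at 208, 365, 312, 380.0, 269 and 343 against 10.1, 34.2, 30.7, 43.3, 26.1 and 41.1 CPM (log2 fold change 3.52 ± 0.16 (SE), adjusted p = 4.28e-20). Socs1, an inhibitor of JAK kinases, rose by 1.55, Trim21 by 1.76, Nmi by 1.49 and Ifi35 by 1.14, while Socs3 had 0.26 (adjusted p = 0.0822). Transcripts of the interferons themselves were absent or rare in interferon-high monocytes. Ifnb1, Ifna1, Ifna2, Ifna4, Ifna5, Ifnl2 and Ifnl3 had 0 UMIs of 1624996, which allows up to 1.85 CPM, and Ifnk had 1. Ifng, the interferon of T and NK cells, had UMIs in 5 of the 208 cells and did not pass the test (−0.61), as the only 1 of 9 interferon genes with enough UMIs to be tested.

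All 16 tested interferon-induced GTPase genes, whose products attack the vacuoles of intracellular pathogens, were higher in interferon-high monocytes (median 1.46), and none was lower. Gbp2 was at 489, 594, 1043, 1013, 1623 and 993 CPM against 187, 421, 305, 517, 398 and 554 CPM (log2 fold change 1.39 ± 0.14 (SE), adjusted p = 1.63e-10). The control value of interferon-high cells lay within the range of the interferon-low cells, so the classes overlapped, while Gbp2 was higher within each mouse. Iigp1 (2.23), Tgtp2 (2.06), Tgtp1 (1.73) and Igtp (1.62), of the immunity-related GTPase family, had the largest changes, and Irgm1 (1.09) and Gbp3 (1.11) the smallest. Tgtp1 and Tgtp2 are near-identical copies and their single values are uncertain.

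Genes of MHC class I presentation rose, and those of the MHC class II chains did not pass the test. Of 20 tested class I genes, 15 were higher and 0 lower (median 0.75). B2m, the light chain of class I molecules, was at 2363, 2096, 2463, 2890.1, 2312 and 3273 CPM against 1478, 1400.3, 1441, 1967, 1601 and 2212 CPM (log2 fold change 0.77 ± 0.09 (SE), adjusted p = 3.04e-08). Tap1, the peptide pump of the endoplasmic reticulum, rose by 1.14, the immunoproteasome subunit gene Psmb9 by 1.07, H2-T22 by 1.58 and H2-K1 by 0.60. Class I heavy chain genes are near-identical in places, and reads may be divided among them.

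Of 11 tested genes of the class II list, 3 were higher (27.3%, beside 11.6% of all genes) and 0 lower (median 0.03). The 3 that rose were the costimulators Cd40 (1.01) and Cd86 (0.82) and the protease gene Ctss (0.58). The invariant chain gene Cd74 was at 375, 2189, 3694, 3348, 1249.5 and 1588 CPM in interferon-high and 559, 2251, 2285, 2601, 1577 and 1650.3 CPM in interferon-low monocytes and did not pass the test (log2 fold change 0.22 ± 0.12, adjusted p = 0.212). Cd74 was lowest in the control library in both classes, and H2-Aa likewise, at 62.5 and 146 CPM.

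Chemokines that draw T cells rose together. All 4 tested genes of this list were higher (median 1.51). Cxcl10, a ligand of the receptor CXCR3 of T cells (ENSMUSG00000034855, chr5:92346638-92348889), was at 2436, 2337, 3686, 3844, 4262 and 3185 CPM in interferon-high and 117, 343, 271, 755, 531 and 608 CPM in interferon-low monocytes, and every interferon-high value exceeded every interferon-low value (log2 fold change 3.22 ± 0.15 (SE), adjusted p = 1.12e-19). A Cxcl10 UMI was found in 178 of 208 interferon-high and 799 of 2170 interferon-low cells (85.6% and 36.8%), against 8.12% of T cells at median depths of 5657.5 to 7434 UMIs. Cxcl9, another ligand of that receptor and a classical target of interferon gamma, rose by 1.22, Cxcl16 by 1.51 and Ccl5 by 1.52, with overlapping classes. In the control mouse Cxcl9 was at 72.9 CPM in interferon-high and 120.5 CPM in interferon-low cells, against the direction of the other 5 mice.

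Chemokines for monocytes and neutrophils went both ways, with 8 of 12 higher and 2 lower (median 1.24). Ccl12, a ligand of CCR2, was at 58.4 to 257 CPM against 19.5 to 50.6 CPM (log2 fold change 2.53 ± 0.22 (SE), adjusted p = 1.22e-11). Ccl4 rose by 2.18, Ccl7 by 1.88, Ccl2 by 1.30 and the neutrophil chemokine gene Cxcl2 by 1.19. Ccl6 fell from 1056, 806, 897, 655, 797 and 796 to 249.9, 418, 213, 385, 502 and 290.2 CPM (log2 fold change −1.09 ± 0.15 (SE), adjusted p = 2.87e-07), and Ccl9 fell by 0.57 on the log2 scale. Both were lower in interferon-high monocytes of every mouse, with no overlap.

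Inflammatory cytokine genes rose in 12 of 13 tested, and 0 were lower (median 1.82). Il1rn, the decoy antagonist of the interleukin-1 receptor, was at 208, 574, 640.3, 760.0, 502 and 747 CPM against 61.8, 113, 60.8, 216, 73.9 and 154 CPM (log2 fold change 2.55 ± 0.16 (SE), adjusted p = 4.90e-16), with the control value as the only one within the interferon-low range. Il15 (2.39) and its presenting receptor gene Il15ra (2.32), which sustain NK and memory CD8 T cells, rose with no overlap between classes. Il27 rose by 2.44, Il1a by 2.49, Il6 by 1.78 and Il18 by 1.42, and Il18bp, the antagonist of interleukin-18, by 1.82. The changes of Il1b (0.62) and Tnf (0.79, adjusted p = 0.0417) were smaller, and that of Tnf missed the test in 8 of 14 alternatives, among them the fits without the control, 2DG, 2FF or anti-PD-L1 mouse (0.61 to 1.05). Il10 did not pass (−0.05, adjusted p = 0.953), and Il12b had no UMI in interferon-high cells.

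**Figure D3:**
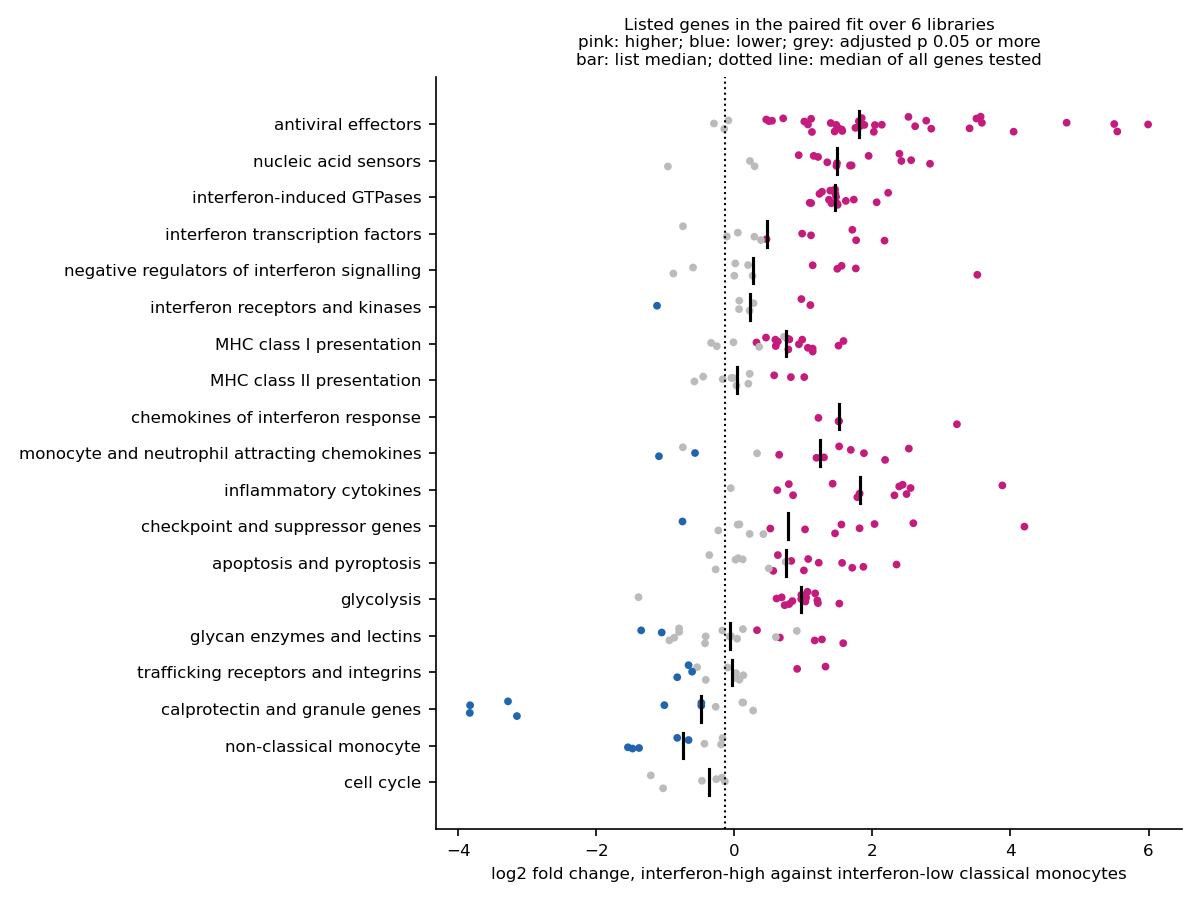
Log2 fold change of interferon-high against interferon-low classical monocytes (x axis) for the tested genes of 19 lists (y axis), from the fit with the mouse as block. Each point is a gene, pink where higher and blue where lower at an adjusted p under 0.05, black bars are list medians and the dotted line is the median of all 9440 genes (−0.13), with antiviral effectors, sensors and GTPases to its right and calprotectin and non-classical monocyte genes to its left.

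Genes of checkpoint ligands and of suppressive myeloid cells changed in part. Of 14 tested, 8 were higher and 1 lower (median 0.77). Nos2, the inducible nitric oxide synthase (ENSMUSG00000020826, chr11:78920787-78960254), was at 833, 462, 788, 481, 887 and 672 CPM in interferon-high and 123, 22.3, 3.77, 49.5, 32.5 and 60.2 CPM in interferon-low monocytes, with no overlap (log2 fold change 4.20 ± 0.26 (SE), adjusted p = 4.90e-16). Its UMIs were found in 87 of 208 interferon-high cells (41.8%) and 136 of 2170 interferon-low cells (6.27%), against 1.13% of T cells, which should lack the gene. In the control library the T cell value was 6.22%, and in the others it was 0.692% to 1.55%. Cd274, which encodes PD-L1, the target of the antibody, was at 812, 659, 960.5, 979.7, 1413 and 1009 against 186, 299, 286, 489.7, 469.8 and 519.9 CPM (log2 fold change 1.55 ± 0.12 (SE), adjusted p = 5.69e-13). The lowest interferon-high value, of the anti-PD-L1 mouse, still lay above the highest interferon-low value.

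Acod1, whose product makes itaconate, rose by 2.59 ± 0.21 (adjusted p = 9.42e-13), Ptgs2 (cyclooxygenase-2) by 2.03 and Lgals9 by 1.46. Vsir (VISTA), another checkpoint ligand gene, fell (log2 fold change −0.75 ± 0.16 (SE), adjusted p = 5.25e-04), and Pdcd1lg2 (PD-L2), Tgfb1 and Sirpa did not pass.

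**Figure D4:**
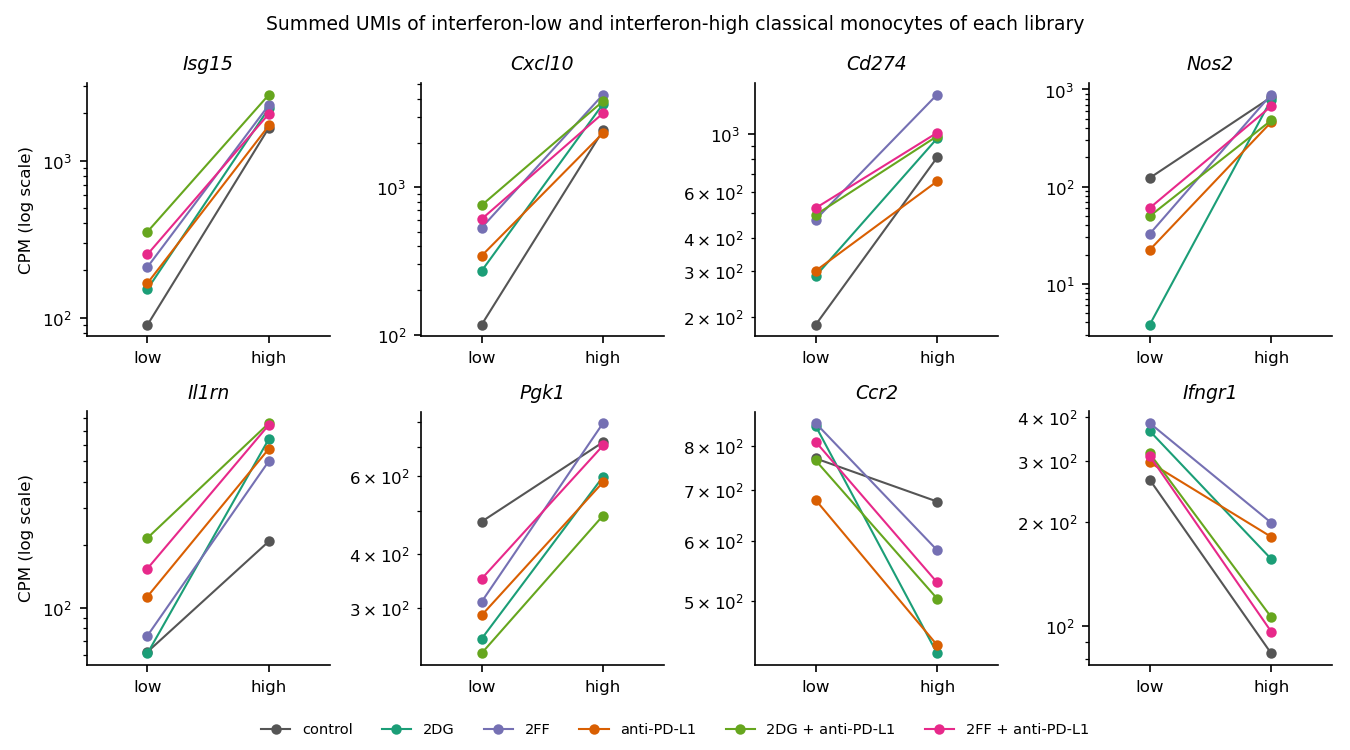
CPM of 8 genes (y axis, log scale) in the summed interferon-low and interferon-high classical monocytes of each mouse (x axis), with a line for each of the 6 libraries. Isg15, Cxcl10, Cd274, Nos2, Il1rn and Pgk1 were higher and Ccr2 and Ifngr1 lower in the interferon-high cells of all 6 mice.

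Interferon-high monocytes differed among themselves in Nos2. The 87 cells with a Nos2 UMI and the 121 without had similar depth (median 7122 and 7685 UMIs) but a different median count of the 4 selecting genes (45 and 22 UMIs). This split was chosen after values were seen, it rests on cells, and it is given with no test. Acod1 was detected in 83.9% of the cells with Nos2 and 39.7% of those without, and the angiogenic factor gene Vegfa in 66.7% and 29.8%. Inhba, a subunit of activin, was detected in 47.1% and 19.0%. Cxcl10 (88.5% and 83.5%), Cxcl9 (33.3% and 39.7%) and H2-Aa (37.9% and 38.8%) were detected at closer shares. By library, cells with Nos2 were 6 of 9, 12 of 36, 7 of 16, 18 of 56, 7 of 10 and 37 of 81 interferon-high monocytes.

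**Figure D5:**
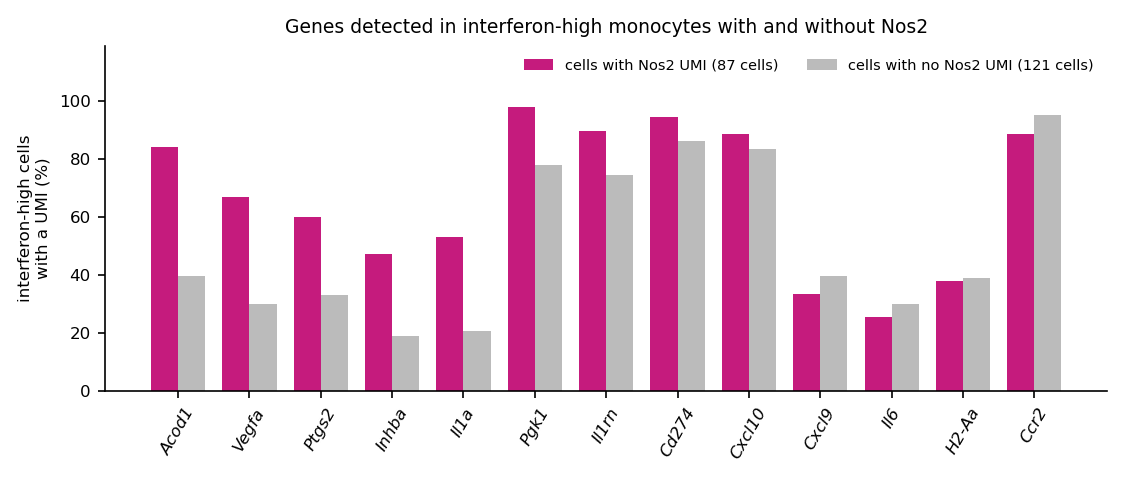
Percentage of interferon-high monocytes with a UMI of each of 13 genes (y axis, linear from 0; genes on the x axis), in the 87 cells with and the 121 cells without a Nos2 UMI, over all 6 libraries. Acod1, Vegfa, Ptgs2, Inhba and Il1a show the widest gaps between the bars.

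Genes of glycolysis, the pathway that 2DG inhibits, were higher in 14 of 15 tested and lower in 0 (median 0.97). Pgk1, which makes the first ATP of the pathway, was at 718, 582, 599, 489, 794 and 706 CPM in interferon-high and 473, 289, 256, 237, 310.3 and 350.2 CPM in interferon-low monocytes (log2 fold change 1.20 ± 0.12 (SE), adjusted p = 4.80e-10). Hk1 rose by 1.52 and Hk2 by 1.06, the enzymes that phosphorylate glucose, and the glucose transporter gene Slc2a1 by 1.03, the lactate exporter gene Slc16a3 by 1.21 and Gapdh by 0.97. Slc2a3 was the gene that did not pass (−1.39, adjusted p = 0.256). Pgk1 was higher in the interferon-high cells of the 2 mice given 2DG as in those of the others, going from 256 to 599 CPM with 2DG and from 237 to 489 CPM with 2DG and anti-PD-L1.

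Glycan enzymes and lectins, which include the enzymes of fucosylation and N-glycan branching that the study concerns, were higher in 5 of 20 tested and lower in 2 (median −0.06). These are 25% and 10%, beside 11.6% and 8.26% of all genes. The 5 higher genes were Siglec1 (1.58), a sialic acid receptor known as an interferon target, Lgals3bp (1.27), Mgat4a (1.16), Mgat1 (0.66, adjusted p = 0.0444) and Lgals3 (0.33). Mgat2 (−1.05) and Siglece (−1.35) were lower. Siglece missed the test in 9 of 13 alternatives, Mgat1 in 7 of 14 and Lgals3 in 5 of 14, with values of −1.80 to −1.10, 0.52 to 0.83 and 0.27 to 0.36 when 1 mouse was left out. Siglec1 missed it without the 2FF with anti-PD-L1 mouse (1.45 to 1.79 over the mice left out). Mgat5, which makes branched N-glycans, was at 135, 233, 189, 212, 175 and 149 against 211, 218, 199, 191, 144 and 178 CPM and did not pass (log2 fold change 0.12 ± 0.15 (SE), adjusted p = 0.617). Fut8, which adds core fucose, had −0.42 (adjusted p = 0.247).

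Cell death genes rose in 10 of 17 tested and fell in 0 (median 0.74). Daxx, which encodes a chromatin and death-receptor adaptor, was at 219 to 432 CPM against 26.1 to 98.6 CPM (log2 fold change 2.35 ± 0.15 (SE), adjusted p = 2.15e-15). Mlkl, the executioner of necroptosis, rose by 1.87, Casp8 by 1.01 and Casp4, a sensor of cytosolic lipopolysaccharide, by 0.63, and so did the survival gene Mcl1 (0.56). Bax, Bak1 and Bcl2l11 did not pass. Of 6 cell cycle genes, 0 were higher and 0 lower, and Mki67 had −1.21 ± 0.45 (adjusted p = 0.0526). Genes of dissociation and stress, which mark handling of the tissue, were higher in 5 and lower in 1 of 19, with a median of 0.04. Nfkbia (0.81) rose and Klf2 (−0.94) fell, while Fos, Jun and Hspa1a did not pass. Median mitochondrial content was lower in the interferon-high cells of every library, at 2.08, 1.40, 1.76, 1.92, 2.19 and 1.82% against 2.52, 1.82, 2.16, 2.06, 2.40 and 2.15%, and they had fewer detected genes in every library (2183 to 2911 against 2412.5 to 3382.5 per cell). The part of these differences in the results was not tested.

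Monocyte identity genes outside the gate changed in 8 of 16, with 5 higher and 3 lower (median 0.20). Fcgr1, the high-affinity IgG receptor CD64, was at 1104, 614, 739, 724, 771 and 699 CPM in interferon-high and 309.7, 168, 188, 240.5, 185 and 239 CPM in interferon-low cells, with no overlap (log2 fold change 1.96 ± 0.12 (SE), adjusted p = 2.55e-16). Lysozyme Lyz2 fell from 6745, 9927, 8877, 10403, 11653 and 8096 CPM to 4102, 5080.2, 3021, 7186, 5979 and 4197 CPM (log2 fold change −0.79 ± 0.10 (SE), adjusted p = 5.25e-08), and it was lower in each of the 6 mice. Fn1 (−0.46) and Chil3 (−0.48) also fell. Of the 5 higher genes, Ms4a4c (1.56) and Ifitm3 also stand in the antiviral list, and the others were Plac8 (0.65) and Ms4a6c (0.31). Ms4a6c missed the test in 9 of 14 alternatives, among them the fits without any 1 of the mice except the 2FF mouse (0.24 to 0.35), and Fn1 missed it in 3, DESeq2 among them. Ccr2, a gate gene and so left out of the counts, was lower in the interferon-high cells of all 6 mice, at 677, 438, 427, 504, 584 and 529 CPM against 771, 680.2, 852, 767, 859 and 812 CPM. Of 12 trafficking receptors and integrins, 2 were higher and 3 lower (median −0.04). These are 16.7% and 25%, beside 11.6% and 8.26% of all genes, so the share of higher genes was near that of all genes. Ccr1 (0.91), a receptor of inflammatory CC chemokines, rose, and the integrin genes Itga4 (−0.61) and Itgal (−0.83) fell. The fractalkine receptor gene Cx3cr1 (−0.66) was the third lower gene, but it missed the test in 10 of 14 alternatives, among them DESeq2 and the fits without any 1 of the mice except the 2DG mouse (−0.78 to −0.53).

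Non-classical monocyte genes were lower in 5 of 8 tested and higher in 0 (median −0.74), among them Nr4a1, the factor on which that cell type depends, from 189, 123, 185, 233, 229 and 262 CPM to 31.2, 64.3, 24.6, 127, 23.4 and 77.3 CPM (log2 fold change −1.38 ± 0.21 (SE), adjusted p = 2.36e-06). The others were Spn (−1.54), Pou2f2 (−1.47), Itgal and Cx3cr1, of which the last 2 are the integrin and receptor genes counted above and Cx3cr1 is the one that missed the test in 10 of 14 alternatives. Of 8 macrophage genes outside the gate, 4 were higher and 2 lower (median 0.65). Among the higher ones were Maf (1.39), Ms4a7 (1.25, adjusted p = 0.0486) and Cd63 (1.20), and the lower ones Adgre1 (−1.06), which encodes F4/80, and Apoe (−0.59). Ms4a7 missed the test in 8 of 13 alternatives, among them the fits without the control, 2FF, anti-PD-L1 or 2FF with anti-PD-L1 mouse (0.92 to 1.44), and Cd63 missed it without either combination mouse (1.08 to 1.32). Mrc1 did not pass. In the longer list of macrophage differentiation, 8 of 15 were higher and 2 lower (median 0.50), with Vegfa (1.64) and the heme oxygenase gene Hmox1 among the higher.

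Markers of other cells were followed in the same sums. The 8 neutrophil genes outside the gate summed to 208, 92.4, 16.4, 41.4, 11.7 and 46.7 CPM in interferon-high and 1345, 52.8, 58.9, 116, 284 and 1255 CPM in interferon-low monocytes, and 3 of 4 tested were lower (median −2.76). Calprotectin and granule genes, which overlap with that list, were lower in 7 of 11 tested and higher in none (median −0.48). S100a8, a subunit of calprotectin, was at 903, 6.10, 8.49, 45.9, 134 and 391 CPM in interferon-low and 104, 28.1, 0, 7.76, 11.7 and 13.1 CPM in interferon-high cells (log2 fold change −3.15 ± 0.40 (SE), adjusted p = 5.38e-08). The interferon-low level was high in the control and 2FF with anti-PD-L1 mice, and S100a8 had a UMI in 28.3% of T cells of the control library and in 0.961% to 3.42% of T cells elsewhere. Its log2 fold change was −1.25 in cells of 3000 to 10000 UMIs and −2.17 without the 2FF with anti-PD-L1 mouse, both past the test, and it missed the test without the block for the mouse. S100a9, the other subunit, also fell (−3.28) but 1 cell held 77.8% of its 18 UMIs in interferon-high cells. Among cells of 3000 to 10000 UMIs its log2 fold change was 0.37, and without the 2FF with anti-PD-L1 mouse it was −0.89 and did not pass. It was −6.42 without the anti-PD-L1 mouse and −5.92 without simulated doublets, and it missed the test under DESeq2 and without the block. The most abundant neutrophil gene of interferon-high cells was Mmp8 (27 of 208 cells), and Ly6g and Ngp had no UMI there. The part of neutrophil RNA in these values was not tested.

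The 9 NK cell genes summed to 0, 979.9, 1371, 25.9, 58.4 and 123 CPM in interferon-high and 50.6, 373, 547, 739.9, 449.6 and 325 CPM in interferon-low cells, with Gzma as the most abundant, in 9 of 208 interferon-high cells. None of 8 tested NK cell genes, 3 T cell genes or 3 B cell genes passed in either direction. T cell genes outside the gate summed to 16 CPM and B cell genes to 33.2 CPM over all interferon-high cells. Of the plasmacytoid dendritic cell list, Bst2, also an antiviral effector, and Tcf4 (0.93) rose, and Klk1 and Cox6a2 had no UMI. Of 4 tested genes of conventional dendritic cells, Cd209a (1.18), a lectin gene of monocyte-derived dendritic cells, was higher, and the list summed to 134 CPM in interferon-high and 132 CPM in interferon-low cells. Pf4, a platelet gene that macrophages can also express, rose (1.67, adjusted p = 0.0321) but was higher in 3 of 6 libraries, with UMIs in 7 of the 208 cells. It missed the test in 4 of 12 alternatives and Cd209a in 3 of 14, both without the 2FF with anti-PD-L1 mouse among others (0.87 to 2.11 and 0.65 to 1.44 over the mice left out).

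The 10 genes with the largest fitted fall were mostly low in both classes. Ccl17, a chemokine gene of dendritic cells, had 206 UMIs in 18 interferon-low cells and none in interferon-high cells, which puts it at least 6.40-fold lower when 3 UMIs are allowed over all interferon-high cells. Without the 2FF with anti-PD-L1 mouse, Ccl17 missed the test. Wdr75, Cks1b, Ccdc34, Frat2 and Sept1 had no UMI in interferon-high cells either, at bounds of 3.17-fold to 4.19-fold lower from 5.85 to 7.74 CPM in interferon-low cells. Like Ccl17, these genes entered the test through their interferon-low sums. Their place among the 10 rests on fitted values with no UMI on the other side, and the bounds do not set their order against the rest. Of these, Ccdc34, Frat2 and Sept1 missed the test under DESeq2 and Cks1b in the anti-PD-L1 libraries alone. Bbs9 and Clec2i had 1 UMI each, against 18.2 and 15.5 CPM in interferon-low cells. Wfdc21 (−3.83) and Lcn2 (−3.83), genes of neutrophil granules and acute phase, completed the set. Bbs9, Clec2i, Wfdc21 and Lcn2 likewise entered the test through their interferon-low sums, and the sizes of their changes are poorly known. Of the 458 UMIs of Wfdc21 in interferon-low cells, 336 were in the control mouse, as were both of its UMIs in interferon-high cells. Its fitted value was −7.01 without that mouse, and it missed the test in cells of 3000 to 10000 UMIs. Lcn2 had 3 UMIs in interferon-high cells and 153, 3.97, 7.54, 5.80, 62.5 and 35.6 CPM in interferon-low cells. Its 3 UMIs were all in the 2FF with anti-PD-L1 mouse, without which its fitted value was −8.32, and those of Bbs9 (−7.78) and Clec2i (−7.53) moved likewise. With no UMI left in interferon-high cells, these fitted values depend on the fit and are no bounds.

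Between treatments, interferon-high monocytes were compared as sums of 1 mouse against 1 mouse, with no test. Ratios are on the scale of log2(CPM + 5), and a gene needed 50 UMIs or more over the 2 libraries compared. The share of genes past 2-fold was 16.6% of 856 genes for 2DG against control, 16.7% of 718 for 2FF against control and 14.8% of 1415 for anti-PD-L1 against control, 3 comparisons that share the control mouse with its 9 cells. It was 5.18% of 2278 genes for 2DG with anti-PD-L1 against anti-PD-L1 and 5.23% of 2928 for 2FF with anti-PD-L1 against anti-PD-L1, which share the anti-PD-L1 mouse. The sums held 96049, 249008, 121816, 386841, 85634 and 685648 UMIs of interferon-high cells.

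Antiviral effectors lay somewhat lower in the control mouse than in the 3 mice compared with it. The median log2 ratio of the antiviral effectors was 0.38 for 2DG, 0.42 for 2FF and 0.44 for anti-PD-L1 against control. It was 0.26 for 2DG with anti-PD-L1 and 0.09 for 2FF with anti-PD-L1 against anti-PD-L1, beside medians of all genes between −0.02 and 0.03. In interferon-low monocytes the same medians were 0.63, 0.85, 0.96, 0.33 and 0.25. Because interferon-high cells were selected on interferon genes, their ratios are no measure of the response of each mouse.

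Against the control mouse, genes of MHC class II presentation were among the highest ratios for 2DG and for anti-PD-L1. The median log2 ratio of that list was 3.28 for 2DG (4 of 7 genes past 2-fold) and 2.53 for anti-PD-L1 (4 of 7). For 2FF it was 0.37 (1 of 3), with all 3 genes above 0. Only these 3 genes of the list had enough UMIs for 2FF, against 7 for 2DG and for anti-PD-L1. The medians therefore cover different genes, and whether the list differed between 2FF and the other treatments cannot be read from them. By the values given above, Cd74 was also higher in the 2FF mouse than in the control mouse. Cd74 was at 3694 against 375 CPM in the 2DG mouse (450 and 36 UMIs), and the class II chain gene H2-Eb1 at 442 against 20.8 CPM in the anti-PD-L1 mouse. In interferon-low monocytes the log2 ratios of these genes in the same comparisons were 2.02 and 2.45. The sensor gene Ifih1 was at 1098 against 208 CPM in the 2FF mouse. Fabp5 and Tcof1 in the 2DG mouse, Lamp2 in the 2FF mouse, and Prkch and Gadd45g in the anti-PD-L1 mouse were also among the highest ratios, at log2 ratios of 2.27 to 4.19. The control values of Prkch and Gadd45g rest on 1 UMI each (exact 95% interval 0.264 to 58.0 CPM) and that of H2-Eb1 on 2 UMIs (2.52 to 75.2 CPM), so the sizes of these ratios are poorly known. Past 2-fold, 84 genes were higher and 58 lower than control for 2DG, 66 and 54 for 2FF, and 148 and 61 for anti-PD-L1. The lower ones are not named, because naming required UMIs in 10 cells of the higher library and the control had 9 interferon-high cells. For the 2FF library, with 10 cells, every cell had to hold the gene.

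Within anti-PD-L1, Ccl7, a monocyte chemokine, had the highest ratio with either inhibitor, at 230.1 against 28.1 CPM with 2DG and 229 against 28.1 CPM with 2FF, where the lower value rests on 7 UMIs in 5 cells. Timp1, an inhibitor of metalloproteases, was at 858 against 185 CPM with 2DG, and Tnip3, an inhibitor of NF-κB signalling, at 421 against 80.3 CPM. Timp1 was also higher with 2FF, outside the 3 highest ratios, so its rise was not particular to 2DG. It was at 1199 against 79.1 CPM in cells with a Nos2 UMI and at 635 against 231 CPM in those without. Mrc1, the mannose receptor, was at 471 against 64.3 CPM with 2FF, from 13 of 81 and 5 of 36 cells. With 1 cell holding 29.9% of the Mrc1 UMIs of all interferon-high cells, that value leans on few cells. The heat shock gene Hspa1a was lowest with 2FF, at 55.4 against 321 CPM, and the phosphatidylinositol transfer protein gene Pitpnc1 with 2DG, at 85.3 against 365 CPM. Cpne1 with 2FF was the third of the highest, and Atxn7 and Egln3 with 2DG and Tex2 and Tmx4 with 2FF were the other lowest ratios (−2.19 to −1.80). Glycolysis genes had a median log2 ratio of −0.39 with 2DG, with 13 of 14 below 0, and of −0.13 with 2FF, with 10 of 14 below 0. In interferon-low monocytes their medians were −0.19 and 0.10. Inflammatory cytokine genes were above 0 in 8 of 8 with 2DG (median 0.52) and in 9 of 9 with 2FF (median 0.40), and their medians in interferon-low monocytes were 0.47 and 0.43. Genes of dissociation and stress, which mark handling, had a median of 0.69 with 2DG, with 13 of 18 above 0, and of −0.01 with 2FF, with 9 of 18 above 0. In interferon-low monocytes their medians were 0.16 and −0.09. Their part in the other ratios was not tested.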

How the data were processed

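Cells of 6 mice, 1 for each treatment, were sequenced with a droplet 3′ method (Chromium v3.1 kit). The authors deposited whole-number UMI counts per gene and cell, made with Cell Ranger (3.1.0 per the labels, 7.0.0 per the file headers and methods) on mm10; whether intronic reads were counted is not given in the sources used here. Cells with at least 250 genes and at most 5% mitochondrial UMIs were kept. Counts of each class and mouse were summed and fitted with edgeR 4.0.16 in R 4.3.3 (quasi-likelihood test, TMM, filterByExpr, mouse as block, Benjamini-Hochberg), and no count includes the 22 genes of the rule, 13 of which passed the filter and stayed in the fit and the adjustment (9453 genes). The gate required Ly6c2 of at least 3 UMIs, Csf1r plus Ccr2 of at least 1, Csf3r, Cxcr2, Retnlg and G0s2 together of at most 3, C1qa, C1qb and C1qc of at most 2, Spp1 plus Gpnmb of at most 4, and none of Ace, Cd3d, Cd3e, Cd3g, Cd79a or Siglech.

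The members and the gene lists were chosen with earlier results of these data known. Named genes were those of the lists and, among genes past the test with 1 direction in all 6 libraries and at least 100 UMIs, 10 at each end of the log2 fold changes; between libraries, 3 at each end of the log2 ratios with UMIs in at least 10 cells of the higher library. Both left out mitochondrial, ribosomal protein, gene model, immunoglobulin, T cell receptor and haemoglobin genes. The control library, with 9 interferon-high cells, could not meet the limit of 10 cells, so no gene higher in control was named between libraries. Mx1, Mx2 and Cxcl11 had no row, and Aldoa matched 2 rows and was left out. Values of a few listed or named genes are not reported here. Doublets were not removed; cells that resembled simulated doublets (11 of 208 interferon-high and 60 of 2170 interferon-low) were left out as an alternative. Intervals and floors cover counting error only. The libraries held 61859753 to 73885214 UMIs. The fit was tested on simulated data. Alternatives were other size factors, DESeq2 1.42.0, no filter, no block, a depth window, a stricter low class, no doublets and each library left out.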

Additional observations from a re-analysis of the deposited data

How the results depend on the processing

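The count of genes higher in interferon-high monocytes stayed within 1.5 times of 1094 under each alternative tried, between 834 and 1105 when 1 mouse was left out. The count of lower genes was less stable. It went from 780 to 1246 with no filter on low counts and to 455 in the 3 anti-PD-L1 libraries alone, a setting chosen after seeing the data, and leaving out 1 mouse gave 450 to 959, the lowest without the 2FF with anti-PD-L1 mouse. DESeq2 gave 1003 higher and 578 lower, and the fit without the block for the mouse gave 942 and 592. Of 336 listed or named genes, 208 passed the test, and each of 14 settings made 1 to 22 of them miss it. Beside those named with their values, Il1b and Apoe missed it without the block and in cells of 3000 to 10000 UMIs, Chil3, Hmox1, Itga4 and Casp4 without the block, Ifitm3, Mcl1, Plac8 and Ctss in those cells, and Tgtp1 in the anti-PD-L1 libraries alone. Values of S100a9 turned from −3.28 to 0.37 in cells of 3000 to 10000 UMIs, and Nkg7, at 0.06, turned to −1.33 there and to −2.12 without simulated doublets; the cause was not tested.

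The share of interferon-high cells at 5 UMIs of the 4 genes was 9.15% (2DG), 8.60% (2FF), 12.3% (anti-PD-L1), 15.2% (2DG with anti-PD-L1) and 22.5% (2FF with anti-PD-L1), and with each cell thinned to 3000 UMIs 1.93% (control), 4.38%, 5.54% and 9.73% (the 3 anti-PD-L1 libraries in the same order). The share of genes past 2-fold between libraries, with at least 100 UMIs, was 11.2% for 2DG, 12.3% for 2FF and 12.01% for anti-PD-L1 against control, and 3.82% for 2DG and 4.06% for 2FF within anti-PD-L1; with 1 CPM added the last was 6.18%. Depth limits the control (9 cells) and 2FF (10 cells) sums most.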
